A study of Mus musculus with 18 samples.

Results

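Macrophages are phagocytes that settle in tissues and tumours, where they clear debris and present antigen. Their survival depends on colony-stimulating factor 1 (encoded by Csf1), which binds a receptor kinase on the lineage (Csf1r). Microbial products and interferon gamma push them towards a classical state marked by inducible nitric oxide synthase (Nos2), whereas interleukin 4 pushes them towards an alternative state marked in mouse by arginase 1 (Arg1) and the mannose receptor (Mrc1). Both enzymes use arginine, Nos2 to make nitric oxide and Arg1 to make ornithine and urea.

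The 10 genes described here are Csf1, Csf1r, the F4/80 gene Adgre1, Cd68, Mrc1, Cd163, Nos2, Arg1, Trem2 and Apoe, chosen by name from the 15596 gene symbols of the deposited count table. RNA was sequenced from tumours of MC38, a mouse colon carcinoma line of C57BL/6 origin, grown in wild-type C57BL/6 mice, and from MC38 cells in culture. The groups were 5 libraries of Mbtps1-knockdown tumours (KD), 5 of control tumours (WT), 3 of Mbtps1-knockdown cells and 3 of control cells. In all tumours the host mouse was of the same wild-type strain, and the stated difference was the genotype of the implanted MC38 cells. Mbtps1 encodes the site-1 protease of the Golgi, which activates the SREBP and ATF6 transcription factors. The genotype label of the changed cells is KD for tumours and culture alike, whereas the series' description calls the cultured ones knockout, and neither names the guide or hairpin, the number of clones, the tumour's age or whether replicates are separate animals or cultures. P-values therefore rest on the variation among libraries, part or all of which may be technical.

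Levels are CPM, counts scaled to a common library total. KD tumours held 22257519 to 32655739 counts, WT tumours 19630410 to 28316572, KD cells 14931689 to 15515405 and WT cells 14240353 to 15155599. Mbtps1 stood at 51.8 ± 6.44 CPM in KD tumours and 121 ± 8.63 CPM in WT tumours (SD, n = 5 each), and at 35.8 ± 1.10 CPM in KD cells and 127 ± 8.80 CPM in WT cells (SD, n = 3 each), with no overlap in either setting. The first principal component of the tumour libraries (56.7% of the variance) placed all KD libraries on one side and all WT libraries on the other. On the second (18% of the variance) KD tumour 3 (-19.87) and WT tumour 2 (-21.97) stood opposite KD tumours 1 (18.04) and 4 (16.59) and WT tumour 1 (12.93). By chi-square per degree of freedom of their counts KD tumours 3 and 5 (23.4 apart) differed from KD tumours 1, 2 and 4 by 50.2 to 124. In culture Csf1r, Adgre1, Cd163, Trem2 and the pan-leukocyte gene Ptprc were listed at 0 in all 6 libraries, and the smallest sum of any gene counted there was 13 over those 6 libraries. The smallest sum over the 10 tumour libraries was 15, so a gene listed at 0 in either setting may have had a few reads.

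Of the 4 members that passed the test in tumours, Csf1, Cd68 and Cd163 have a promoter in the RefSeq table (GRCm38.p6). The table holds 6 of the 10 members, and Csf1r, Adgre1, Nos2 and Arg1 are not among them. The 250 bases before the start site of each are shown, 5′ to 3′ on the gene's strand, so that the genes' start regions can be read beside their levels. Capitals mark matches on either strand to GAGGAA, a core bound by the myeloid factor PU.1 and other ETS proteins, to GGNNNTTCC (NF-kappa-B), TTCNNNGAA (STAT), GAAANNGAA (IRF), TCACNCCAC (SREBP) or TGACGTGG (ATF6).
Csf1, chr3:107760470-107760719, minus strand: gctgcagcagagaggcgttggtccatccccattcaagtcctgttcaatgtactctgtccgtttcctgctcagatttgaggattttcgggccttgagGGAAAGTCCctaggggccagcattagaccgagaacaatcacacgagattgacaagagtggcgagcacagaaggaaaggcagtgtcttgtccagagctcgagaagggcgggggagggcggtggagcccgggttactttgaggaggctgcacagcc
Cd68, chr11:69666171-69666420, minus strand: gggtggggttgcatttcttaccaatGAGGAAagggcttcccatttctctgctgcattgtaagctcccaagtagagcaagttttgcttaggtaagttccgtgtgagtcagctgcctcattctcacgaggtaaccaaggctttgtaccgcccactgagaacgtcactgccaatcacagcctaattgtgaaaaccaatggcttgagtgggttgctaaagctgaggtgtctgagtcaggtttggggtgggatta
Cd163, chr6:124304401-124304650, plus strand: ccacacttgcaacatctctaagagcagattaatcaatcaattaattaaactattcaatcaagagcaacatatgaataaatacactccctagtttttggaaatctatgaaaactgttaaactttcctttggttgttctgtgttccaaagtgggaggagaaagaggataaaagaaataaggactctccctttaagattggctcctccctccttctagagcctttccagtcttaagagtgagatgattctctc
The Csf1 window holds a match to the NF-kappa-B letters from -154 to -146 and no match to the other motifs. The Cd68 window holds GAGGAA from -225 to -220, and the Cd163 window holds none of the motifs. Among 32851 RefSeq promoters, searched from 250 bases before to 50 bases after the start site, 28.3% held GAGGAA, 18.5% GGNNNTTCC, 8.56% GAAANNGAA, 8.3% TTCNNNGAA, 1.24% TCACNCCAC and 0.676% TGACGTGG. None of the motifs searched overlapped another in these windows. The matches are descriptions of letters and not of bound sites.

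Across the 10 members in tumours, Nos2, Csf1 and Cd68 were higher in KD, Cd163 was lower, and Csf1r, Adgre1, Mrc1, Arg1, Trem2 and Apoe did not pass the test. Calls are at an adjusted p under 0.05 in edgeR's quasi-likelihood test with Benjamini-Hochberg adjustment over 13997 genes. The 2 genotypes differed widely at that threshold: 38.4% of all tested genes were called, 20.1% higher and 18.3% lower. In 22.6% of all tested genes the KD and WT values did not overlap. Against that background 4 of 10 members called is close to the share among all genes, and the same 4 did not overlap. The members' median log2 fold change was -0.09, beside 0.02 for all genes. All tests were made on whole tumours, in which fewer cells of a type and less RNA per cell cannot be told apart.

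**Figure D1:**
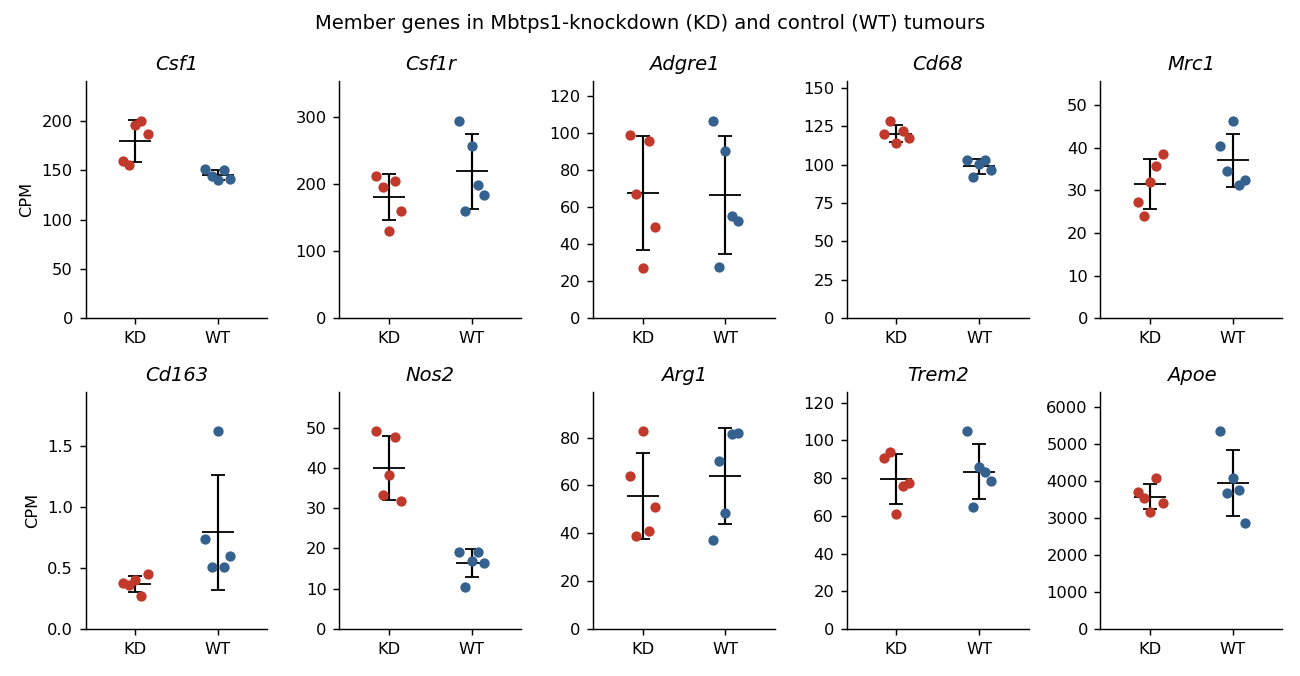
Level of each of the 10 genes in the 5 KD tumours (red, left) and the 5 WT tumours (blue, right) of each panel, in CPM. Points are libraries, bars are the mean ± SD, and axes start at 0; KD and WT points separate in Csf1, Cd68, Cd163 and Nos2 and overlap in the other 6 panels.

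Ptprc and most T and natural killer markers were higher in KD tumours. Ptprc, chosen after its values were seen, averaged 102 ± 20.8 CPM in KD tumours and 49.4 ± 9.59 CPM in WT tumours (SD, n = 5 each; log2 fold change 1.06, SE 0.14, adjusted p = 2.55e-04). Of 11 tested T and natural killer markers, 9 passed as higher, 0 as lower and 2 missed the threshold, beside 20.1% higher and 18.3% lower among all tested genes. Their summed level was 130 to 177 CPM in KD tumours and 48.4 to 108 CPM in WT tumours. The CD8 coreceptor gene Cd8a (log2 fold change 1.27, SE 0.17) and the cytotoxic granule gene Nkg7 (1.51, SE 0.20) rose. The T cell receptor constant gene Trac was either missing from the count table or listed at 0 in tumours. Their part in the members' values was not tested.

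Csf1, the lineage growth factor, was higher in KD tumours. Its level was 159, 155, 196, 200 and 186 CPM in KD tumours 1 to 5, against 151, 145, 140, 150 and 141 CPM in WT tumours 1 to 5. The lowest KD library stood just above the highest WT library, and KD tumours 3 to 5 lay well above KD tumours 1 and 2. The means were 179 ± 21.0 CPM in KD and 145 ± 5.04 CPM in WT (SD, n = 5 each), a log2 fold change of 0.32 (SE 0.09, 95% interval 0.13 to 0.50, adjusted p = 0.0114). Of all tested genes, 3339 rose more.

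In cultured MC38 cells, where Ptprc was at 0, Csf1 was higher in the knockdown as well. It stood at 277, 281 and 249 CPM in KD cells 1 to 3, against 180, 184 and 182 CPM in WT cells 1 to 3, and the groups did not overlap. The means were 269 ± 17.6 CPM in KD cells and 182 ± 2.08 CPM in WT cells (SD, n = 3 each), a log2 fold change of 0.55 (SE 0.09, 95% interval 0.36 to 0.75, adjusted p = 0.00371 by edgeR's quasi-likelihood test). In this comparison 9.33% of 11905 tested genes were called, and Csf1 was the only one of the 5 members tested to pass. The fold change in tumours was smaller than in cells by 0.22 on the log2 scale (SE 0.13, 95% interval of tumours minus cells -0.49 to 0.06), and this difference did not pass the test (adjusted p = 0.241), which called 22.7% of 12581 genes. Per kilobase of transcript the level of Csf1 was 64.4 CPM in KD cells and 43.6 CPM in WT cells, beside 43.0 CPM in KD tumours and 34.8 CPM in WT tumours.

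**Figure D2:**
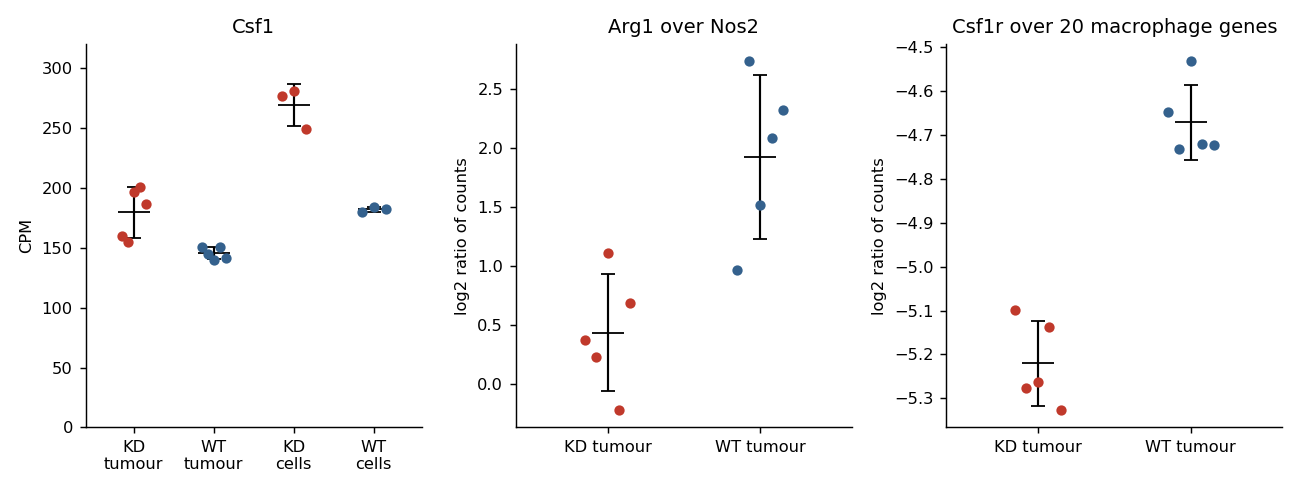
Left, Csf1 in CPM in KD and WT tumours (n = 5 each) and KD and WT cells (n = 3 each), with an axis from 0. Middle and right, log2 ratios of counts in each tumour library, Arg1 over Nos2 and Csf1r over the sum of 20 macrophage identity genes, with axes that do not start at 0; bars are the mean ± SD. Csf1 is higher in KD in both settings, the Arg1 over Nos2 points of the genotypes meet between 0.96 and 1.11, and the Csf1r ratios do not overlap.

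Csf1r, which encodes the CSF1 receptor and lies on chromosome 18 (61100598 to 61132149, plus strand, GRCm38 with GENCODE M21), did not follow its ligand. Its level was 213, 196, 130, 205 and 160 CPM in KD tumours 1 to 5, against 295, 161, 257, 199 and 184 CPM in WT tumours 1 to 5. The groups overlapped between 161 and 213 CPM, with the highest levels in WT tumours 1 and 3 and the lowest in KD tumour 3. The log2 fold change was -0.26 (SE 0.16, 95% interval -0.61 to 0.09, adjusted p = 0.215). The interval reaches from a clear fall to a slight rise.

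The other genes of the colony-stimulating factor axis, 15 tested from a list of growth factors, receptors and lineage transcription factors, showed 3 rises, 1 fall and 11 genes short of the threshold, with a median log2 fold change of 0.23. Among all tested genes 20.1% rose and 18.3% fell. Kitl, which encodes stem cell factor (51.1 ± 3.99 CPM in KD, 31.6 ± 3.15 CPM in WT; SD, n = 5 each; log2 fold change 0.71, SE 0.08), and Csf3r, the granulocyte colony-stimulating factor receptor gene (0.74, SE 0.17), rose. The haematopoietic transcription factor gene Runx1 fell (-0.36, SE 0.10). Il34, the other ligand of the receptor, stood at 44.6 CPM in KD and 46.1 CPM in WT (-0.03, SE 0.09, adjusted p = 0.785), and the lineage factor gene Spi1, which encodes PU.1, at 65.9 CPM in KD and 54.6 CPM in WT (0.28, SE 0.11, adjusted p = 0.0591). These last 2 were named after their values were seen.

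Adgre1 encodes F4/80, the adhesion receptor by which mouse macrophages are commonly sorted. It had 99.3, 67.2, 27.3, 95.5 and 49.1 CPM in KD tumours 1 to 5, against 107, 27.8, 90.5, 55.0 and 52.5 CPM in WT tumours 1 to 5. Both groups ran from under 28 CPM to about 100 CPM, and the lowest libraries were KD 3 and WT 2. Its log2 fold change was 0.03 (SE 0.38, 95% interval -0.81 to 0.88, adjusted p = 0.952).

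Cd68, a lysosomal glycoprotein gene of macrophages and other phagocytes, was higher in KD tumours. The levels were 120, 129, 114, 122 and 117 CPM in KD tumours 1 to 5, against 103, 92.0, 100, 103 and 96.7 CPM in WT tumours 1 to 5. All KD libraries were above all WT libraries, and both groups were tight, with a coefficient of variation of 4.62% in KD and 4.83% in WT. The log2 fold change was 0.30 (SE 0.07, 95% interval 0.15 to 0.45, adjusted p = 0.00594), for means of 120 ± 5.56 CPM in KD and 99.1 ± 4.79 CPM in WT (SD, n = 5 each). In cultured cells Cd68 stood at 2.26 to 2.68 CPM in KD and 1.12 to 2.18 CPM in WT (log2 fold change 0.52, SE 0.31, adjusted p = 0.306).

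Of 20 other tested genes of macrophage identity, 8 rose, 1 fell and 11 did not pass, with a median log2 fold change of 0.22. Over all tested genes 38.4% were called, 20.1% higher and 18.3% lower. The total called on this list was near that share, but nearly all of its calls were rises. Fcer1g, an activating Fc receptor signalling chain (487 ± 94.0 CPM in KD, 245 ± 50.7 CPM in WT; SD, n = 5 each; log2 fold change 1.01, SE 0.16), and the lysosomal protease gene Ctss (0.64, SE 0.11) rose, and Siglec1, the sialoadhesin gene of resident macrophages, fell (-1.12, SE 0.28). Fcer1g is also expressed by natural killer and mast cells. The list's summed level was 4999 to 7600 CPM in KD tumours and 4275 to 7403 CPM in WT tumours, with overlapping groups.

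Set against that sum, Csf1r was lower in every KD library than in any WT library. The log2 ratio of Csf1r counts to the summed counts of the 20 genes was -5.22 ± 0.10 in KD and -4.67 ± 0.08 in WT (SD, n = 5 each), a difference of -0.55. Trem2 (difference -0.35) and Cd163 (-1.22) were likewise lower in KD relative to the sum, and Nos2 was higher (1.01), all without overlap. The ratios of Csf1, Adgre1, Cd68, Mrc1, Arg1 and Apoe to the sum overlapped between the genotypes. These ratios are descriptions, were not tested, and move with the denominator, in which 8 genes rose. The summed denominator averaged 6709 CPM in KD and 5547 CPM in WT tumours. The share of all genes that would separate on this scale was not computed. In CPM, Csf1r and Trem2 overlapped between the genotypes.

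Nos2 gave the largest rise of the 10 genes. It had 49.1, 33.3, 38.2, 47.7 and 31.8 CPM in KD tumours 1 to 5, against 19.1, 10.5, 16.8, 19.2 and 16.4 CPM in WT tumours 1 to 5. The lowest KD library was well above the highest WT library. The means were 40.0 ± 8.01 CPM in KD and 16.4 ± 3.54 CPM in WT (SD, n = 5 each), 2.46-fold higher in KD (log2 fold change 1.30, SE 0.16, 95% interval 0.95 to 1.65, adjusted p = 1.65e-04). The gene lies on chromosome 11 (78920787 to 78960254, plus strand, GRCm38 with GENCODE M21), and 176 of the 13997 tested genes rose more.

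Some Nos2 RNA was present in culture. The libraries had 3.79, 2.88 and 3.67 CPM in KD cells, against 3.22, 2.90 and 0.632 CPM in WT cells. Both KD and WT cells were thus far below the tumours of the same genotype, and WT cell library 3 was far below the other two. The log2 fold change in cells was 0.60 (SE 0.42, adjusted p = 0.389), and the change in tumours minus that in cells was 0.72 (SE 0.42, adjusted p = 0.231). Without WT cell library 3 that difference was 1.15 and passed (adjusted p = 0.0283). It did not pass in the other 20 of 21 alternatives.

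Arg1, the other arginine enzyme, did not pass. It had 63.8, 39.0, 82.7, 41.0 and 51.1 CPM in KD tumours 1 to 5, against 37.4, 70.1, 48.3, 81.4 and 82.1 CPM in WT tumours 1 to 5. The 2 ranges almost coincided, with a log2 fold change of -0.18 (SE 0.25, 95% interval -0.73 to 0.37, adjusted p = 0.59). In cultured cells the gene had 1 to 10 counts per library and was below the filter.

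The ratio of Arg1 to Nos2 counts set the 2 enzymes against each other within a library. It was 1.30, 1.17, 2.16, 0.859 and 1.61 in KD tumours 1 to 5, against 1.95, 6.66, 2.87, 4.25 and 4.99 in WT tumours 1 to 5. Arg1 counts, not scaled by transcript length, exceeded Nos2 counts in all WT tumours and in 4 of 5 KD tumours. Per kilobase of transcript Arg1 was above Nos2 in every tumour. In KD tumours it had 26.4 to 56.0 CPM against 9.26 to 14.3 CPM for Nos2. In WT tumours it had 25.3 to 55.6 CPM against 3.06 to 5.59 CPM for Nos2. The ratios of the 2 groups overlapped through KD tumour 3 and WT tumour 1. The mean log2 ratio was 0.44 ± 0.50 in KD and 1.93 ± 0.69 in WT (SD, n = 5 each), a 2.81-fold lower ratio in KD (difference -1.49, exact two-sided permutation test over 252 groupings, p = 0.0159, where the smallest possible p is 0.00794). Nos2 alone did not overlap between the genotypes, and Arg1 alone did.

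**Figure D3:**
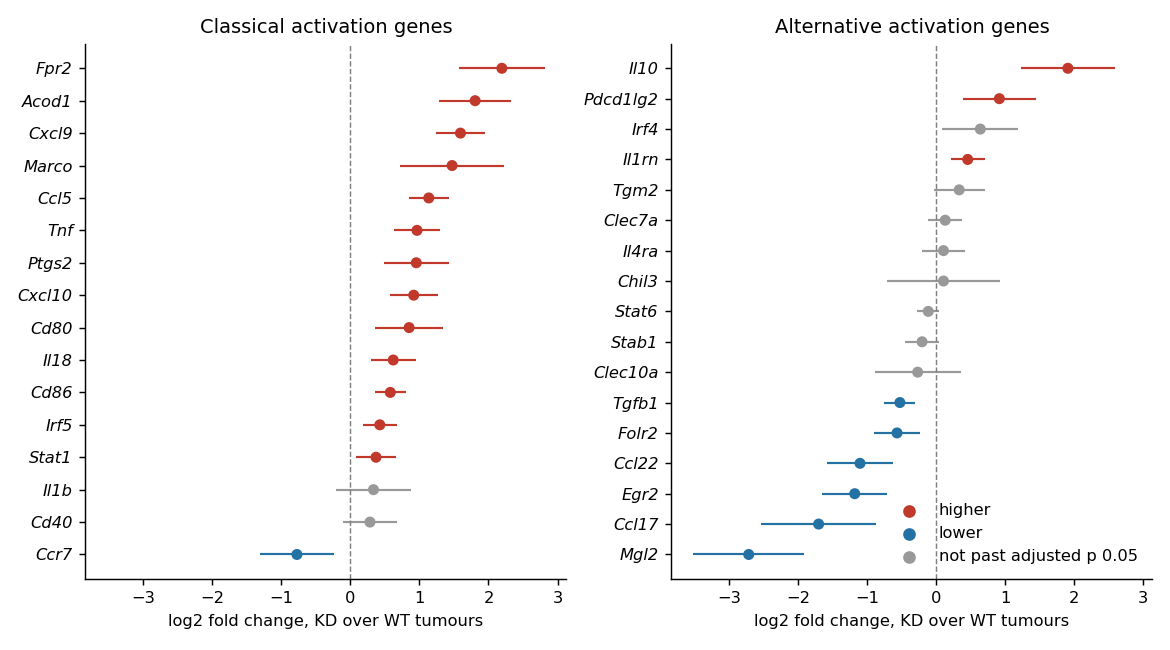
Log2 fold change, KD over WT tumours, of the tested genes on the lists of classical (left, 16 genes) and alternative activation (right, 17 genes), with 95% intervals. Red marks genes higher and blue genes lower at an adjusted p under 0.05, and grey the rest; classical genes lie mostly right of 0, alternative genes on both sides.

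Other classical activation genes rose in most cases: of 16 tested, 13 rose, 1 fell and 2 did not pass, with a median log2 fold change of 0.88 beside 0.02 for all genes. Among all tested genes 20.1% rose and 18.3% fell. Their summed level was 2307 to 2541 CPM in KD tumours and 1089 to 1578 CPM in WT tumours. Cxcl9, an interferon gamma induced chemokine for T cells, averaged 753 ± 54.0 CPM in KD and 253 ± 75.9 CPM in WT (SD, n = 5 each; log2 fold change 1.59, SE 0.16). The chemokine gene Ccl5 rose (1.14, SE 0.13), and Ccr7, a chemokine receptor gene of migrating dendritic cells and T cells, fell (-0.77, SE 0.25). Ccl5 and Ccr7 are also expressed by T cells. In cultured cells 4 of 6 tested genes of this list rose and 0 fell, where 9.33% of all tested genes were called in either direction. The summed level there reached 399 CPM in KD and 274 CPM in WT.

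Mrc1 and Cd163 are scavenger receptors used as markers of alternative macrophages. Mrc1, the mannose receptor gene, had 27.4, 24.1, 32.0, 35.7 and 38.5 CPM in KD tumours 1 to 5, against 40.5, 34.6, 46.4, 31.3 and 32.5 CPM in WT tumours 1 to 5. The 2 lowest libraries were KD and the 2 highest WT, with overlap between. Mrc1 did not pass (log2 fold change -0.22, SE 0.13, 95% interval -0.50 to 0.07, adjusted p = 0.206). Cultured cells had 1.26, 1.14 and 0.580 CPM in KD, against 1.54, 0.924 and 2.74 CPM in WT (log2 fold change -0.81, SE 0.46, adjusted p = 0.285).

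Cd163, the haptoglobin-haemoglobin receptor gene, was low throughout and lower in KD. It had 0.374, 0.359, 0.398, 0.266 and 0.450 CPM in KD tumours 1 to 5, against 0.733, 0.505, 1.62, 0.509 and 0.600 CPM in WT tumours 1 to 5. These levels rest on 6 to 13 counts per KD library and 10 to 41 per WT library. The groups did not overlap, but the highest KD and the lowest WT library differed by little, and WT tumour 3 was far above the rest. The log2 fold change was -1.07 (SE 0.37, 95% interval -1.86 to -0.29, adjusted p = 0.034). Without WT tumour 3 it was -0.65 and did not pass (adjusted p = 0.11), and it also did not pass without KD tumour 2 (adjusted p = 0.0572), 4 (0.0654) or 5 (0.0513).

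The list of other alternative activation genes was divided: of 17 tested, 3 rose, 6 fell and 8 did not pass, with a median log2 fold change of -0.12. Among all tested genes 20.1% rose and 18.3% fell. Mgl2, a macrophage and dendritic cell lectin gene induced by interleukin 4 in mouse, averaged 0.893 ± 0.571 CPM in KD and 6.22 ± 2.49 CPM in WT (SD, n = 5 each; log2 fold change -2.72, SE 0.37). The transcription factor gene Egr2 fell (-1.18, SE 0.22). Pdcd1lg2, which encodes the PD-1 ligand PD-L2 (0.91, SE 0.25), and the interleukin 1 receptor antagonist gene Il1rn (0.45, SE 0.11) rose. The summed level of the list, 656 to 922 CPM in KD and 675 to 986 CPM in WT, overlapped.

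**Figure D4:**
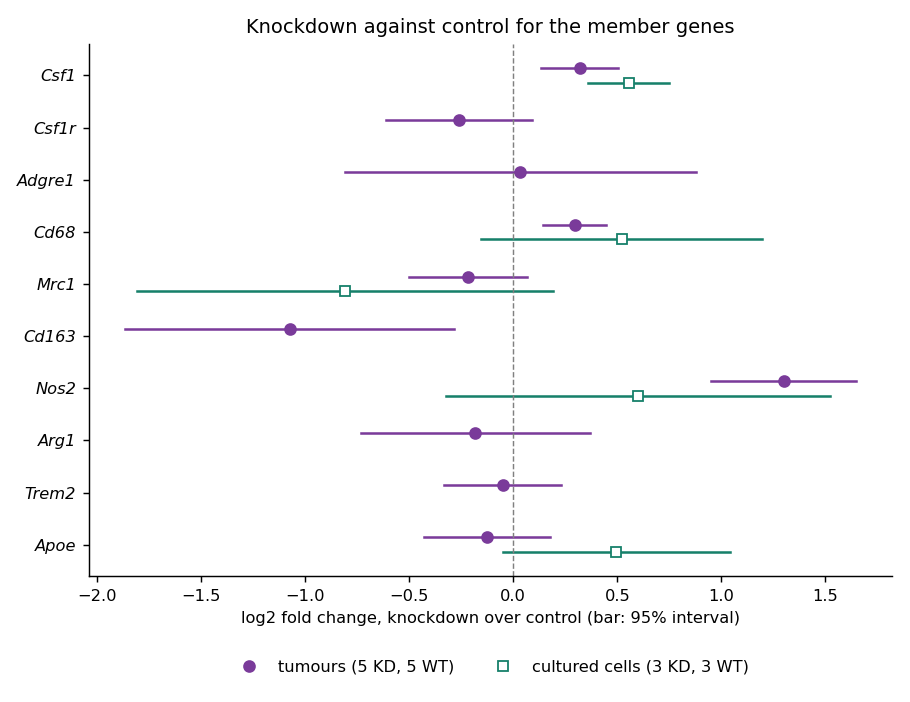
Log2 fold change of each gene, knockdown over control, in tumours (filled circles, 5 KD and 5 WT) and in cultured cells (open squares, 3 KD and 3 WT), with 95% intervals; no square is drawn where the gene was not tested in cells. The intervals of Csf1, Cd68, Nos2 and Cd163 in tumours, and of Csf1 in cells, lie off 0.

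Arginine transport and metabolism around the 2 enzymes gave few calls: of 12 tested genes, 0 rose, 2 fell and 10 did not pass, with a median of -0.15. Among all tested genes 20.1% rose and 18.3% fell. The falls were the endothelial nitric oxide synthase gene Nos3 (-0.40, SE 0.14) and the argininosuccinate lyase gene Asl (-0.24, SE 0.09). Nos3 lost its call in 8 and Asl in 9 of 18 alternatives. Both lost it with the replicate number as a block in edgeR's test (adjusted p = 0.0569 for Nos3 and 0.0623 for Asl). Of 9 tested genes of haem and haemoglobin handling around Cd163, 1 rose, 1 fell and 7 did not pass, with a median of -0.13. The biliverdin reductase gene Blvra rose (0.43, SE 0.12), and Lrp1, an endocytic receptor gene, fell (-0.56, SE 0.11).

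Trem2 and Apoe belong to the lipid-handling state described in tumour and tissue macrophages. Trem2, a lipid-sensing receptor gene, had 90.5, 93.8, 60.9, 75.7 and 77.2 CPM in KD tumours 1 to 5, against 105, 64.8, 85.9, 83.4 and 78.4 CPM in WT tumours 1 to 5. The groups overlapped, and the log2 fold change was -0.05 (SE 0.13, 95% interval -0.33 to 0.23, adjusted p = 0.777).

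Apoe, the apolipoprotein gene and the most abundant of the 10 per kilobase, had 3699, 3529, 3170, 4083 and 3388 CPM in KD tumours 1 to 5, against 5338, 3666, 4073, 3764 and 2864 CPM in WT tumours 1 to 5. The highest and the lowest library were both WT. Apoe had a log2 fold change of -0.13 (SE 0.14, 95% interval -0.43 to 0.17, adjusted p = 0.494). In cells Apoe stood at 5.25, 4.09 and 4.83 CPM in KD, against 2.52, 3.17 and 4.28 CPM in WT (log2 fold change 0.50, SE 0.25, adjusted p = 0.231). The change in tumours minus that in cells was -0.60 (SE 0.28, 95% interval -1.19 to -0.02, adjusted p = 0.123).

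Of 21 other tested genes of the lipid-loaded state, 7 rose, 3 fell and 11 did not pass, with a median of 0.15. Among all tested genes 20.1% rose and 18.3% fell. Spp1, the osteopontin gene (128 ± 29.4 CPM in KD, 54.2 ± 8.94 CPM in WT; SD, n = 5 each; log2 fold change 1.25, SE 0.16), and the galectin 3 gene Lgals3 (0.66, SE 0.13) rose. The fatty acid binding protein gene Fabp5 (-0.65, SE 0.12) and the lipid droplet coat gene Plin2 (-0.46, SE 0.12) fell. Cultured cells also express much of this list, with a summed level of up to 4552 CPM in KD cells and 4043 CPM in WT cells.

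Per kilobase of transcript, the order of the levels in KD tumours was Apoe (2538 CPM per kilobase), Cd68 (97.8), Trem2 (73.2), Csf1 (43.0), Csf1r (38.5), Arg1 (37.6), Adgre1 (20.9), Nos2 (11.7), Mrc1 (5.87) and Cd163 (0.0839). In WT tumours it was Apoe (2799 CPM per kilobase), Cd68 (80.5), Trem2 (76.7), Csf1r (46.6), Arg1 (43.2), Csf1 (34.8), Adgre1 (20.5), Mrc1 (6.89), Nos2 (4.79) and Cd163 (0.180). In KD tumours the ranges of neighbours overlapped from Csf1 down to Nos2, and those of Apoe, Cd68, Trem2 and Csf1, and of Nos2, Mrc1 and Cd163, stood apart. In WT tumours they overlapped from Cd68 down to Csf1 and between Adgre1 and Mrc1, and stood apart elsewhere. Nos2 lay above Mrc1 in every KD tumour and below it in every WT tumour on this scale.

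Within each genotype the members fell into a pattern that the genotypes shared. After each library's group mean was removed on the log2(CPM + 1) scale, Csf1r and Adgre1 varied together over the 10 tumour libraries (Pearson r = 0.97), and Csf1r varied with Trem2 (0.88), Apoe (0.77) and Cd68 (0.75). Arg1 ran against them (r = -0.78 with Csf1r and -0.77 with Apoe). KD tumour 3 and WT tumour 2 were low in Csf1r, Adgre1 and Trem2, and KD tumour 1 and WT tumour 1 were high, the libraries that also stood at the ends of the second component of all genes. Without KD tumour 3 and WT tumour 2, over 8 libraries, Csf1r had r = 0.95 with Adgre1, 0.73 with Trem2, 0.87 with Apoe, 0.47 with Cd68 and -0.74 with Arg1. Nos2 had r = 0.61 with Csf1r and -0.10 with Arg1, and Csf1 had -0.27 with Csf1r. These values are descriptions over 45 pairs of genes whose libraries share a tumour, a depth and a total, and no test was made.

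**Figure D5:**
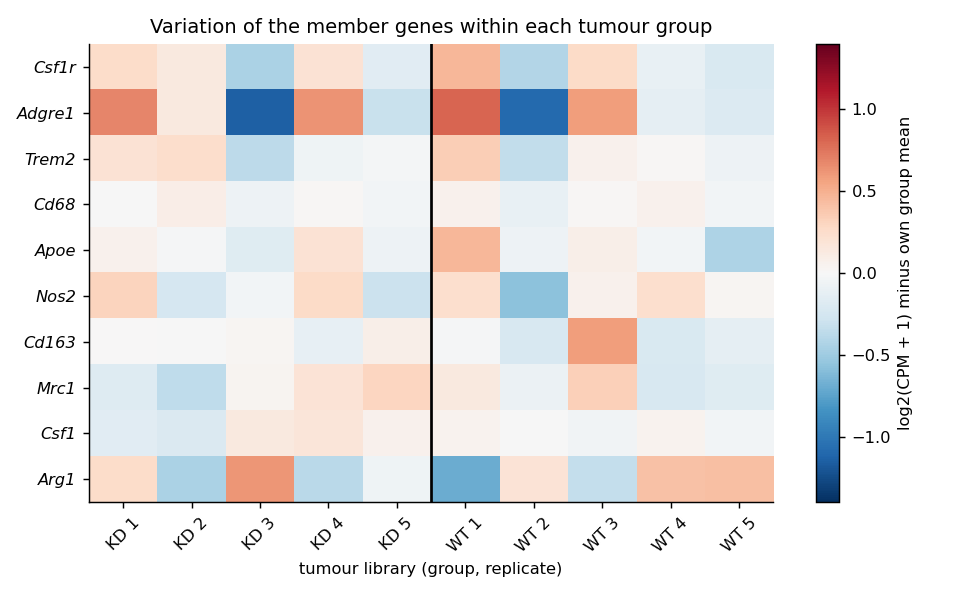
Deviation of each gene from its own group's mean on the log2(CPM + 1) scale in the 5 KD (left of the line) and the 5 WT tumours, with red above and blue below the mean. Adgre1, Csf1r and Trem2 are low together in KD 3 and WT 2 and high together in KD 1 and WT 1, and Arg1 is low in WT 1 and high in KD 3.

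The genes most like Csf1, Csf1r, Nos2, Arg1 and Trem2 by that measure, among 10908 genes with at least 5 CPM over the 10 tumour libraries, are named by a rule on likeness alone. Nearest to Csf1r were Nfam1 (r = 0.99), Slfn2, Entpd1, Cxcl16 and Rcsd1, none of which passed the test between genotypes. Nearest to Trem2 were Ncf1 (0.98), Coq8a, Fcgr4, Scimp and Cndp2, of which the Fc receptor gene Fcgr4 rose (log2 fold change 1.05). Among the nearest to Arg1 were Il34 (0.96), Rusf1, Ncam1 and Mmp12, of which Ncam1 fell (-0.55). Nearest to Nos2 were Xdh (0.96), Slc7a5, Prkce, Rps6ka2 and Pigq, of which 4 fell, Slc7a5 (-0.46), Prkce (-0.47), Rps6ka2 (-0.75) and Pigq (-0.32). Nearest to Csf1 were Pigo (0.96), Ghdc, Tmem131l, U2af2 and Il15ra, of which the interleukin 15 receptor gene Il15ra rose (0.80). For these 5 genes r with Csf1 was 0.97 to 0.99 within KD tumours. Within WT tumours it was 0.76, 0.62, 0.81, 0.49 and 0.52 in the same order. The lists name neighbours over 10 libraries and carry no statement on function or control.

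Markers of other myeloid cells that express some of the members were examined beside them. Over all tested genes 20.1% were called higher and 18.3% lower in KD tumours, the shares to set beside the counts below. Among 8 tested monocyte markers 2 rose and 1 fell, and 5 missed the threshold, with a summed level of 433 to 540 CPM in KD and 378 to 496 CPM in WT tumours. Most of it was Vcan, a matrix proteoglycan gene (368 CPM in KD tumours and 321 CPM in WT tumours), which cultured cells carried at 363 CPM in KD and 382 CPM in WT. Without Vcan the sum was 84.6 to 143 CPM in KD and 68.7 to 151 CPM in WT tumours. The monocyte receptor gene Treml4 rose (0.89, SE 0.20), and the coagulation factor gene F13a1 fell (-0.94, SE 0.20). Among 8 tested neutrophil markers 1 rose and 2 fell, and 5 missed the threshold. Their sum was 82.1 to 132 CPM in KD and 123 to 137 CPM in WT tumours. Most of it was Mmp9 (65.0 CPM in KD tumours and 100 CPM in WT tumours), which averaged 36.2 CPM in KD cells and 16.8 CPM in WT cells, and without it the sum was 28.5 to 44.7 CPM in KD and 22.8 to 34.8 CPM in WT tumours. The defining neutrophil genes Ly6g, Retnlg and Mpo were either missing from the count table or listed at 0 in all tumours. The 2 cases were not told apart, so this does not show absence of expression. The fallers were the gelatinase gene Mmp9 (-0.62, SE 0.13) and the calprotectin gene S100a9 (-1.28, SE 0.48), the last of which lost its call in several alternatives. Among 10 tested dendritic cell markers 3 rose and 3 fell, and 4 missed the threshold, with a sum of 265 to 360 CPM in KD and 449 to 534 CPM in WT tumours. Most of it was Fscn1 (251 CPM in KD tumours and 447 CPM in WT tumours), which averaged 336 CPM in KD cells and 362 CPM in WT cells. Without it the sum was 58.7 to 64.6 CPM in KD and 42.9 to 60.1 CPM in WT tumours, the other direction with a slight overlap. The cross-presenting dendritic cell genes Xcr1 (1.70, SE 0.23) and Clec9a (0.95, SE 0.12) rose, and the actin-bundling gene Fscn1 (-0.82, SE 0.11) and the integrin gene Itgae (-0.82, SE 0.24) fell. Cultured cells carried Clec9a as well, at 21.6 CPM in KD and 21.8 CPM in WT, beside 16.2 CPM in KD tumours and 8.48 CPM in WT tumours. Clec9a remains in the sum without Fscn1. The part of these cells in the members' values was not tested.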

How the data were processed

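RNA was sequenced in 10 libraries of MC38 tumours and 6 libraries of cultured MC38 cells (poly(A) RNA captured on beads, per the labels' protocols), and groups follow the titles. The authors deposited whole-number read counts per gene symbol, not normalised. Per the submitters' processing notes the tools were STAR 2.7.1a, HTSeq 0.13.5, cutadapt 1.18, Cufflinks 0.17.3, FastQC 0.11.9 and SAMtools 1.3.1, in no stated role, with the human build hg38, although the symbols are mouse. The build and strand setting are not given in the sources used here. Reads of antisense partners therefore cannot be told apart, no member had the counts of another symbol, and gene places come from GENCODE M21.

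Counts were tested with edgeR 4.0.16 (R 4.3.3; TMM, filterByExpr, robust quasi-likelihood fit), tumours and cells separately, and tumours minus cells as an interaction over all 16 libraries; the code was tested on simulated data. Alternatives were DESeq2 1.42.0, limma 3.58.1 voom, other scalings and filters, a replicate block and leaving out each library. CPM were computed from the deposited counts, and CPM per kilobase with the longest principal transcript. The Arg1 to Nos2 ratio used a pseudocount of 0.5.

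The members and the 15 gene lists were chosen with earlier results of these data known. Named were all members and, per list, the 2 genes with at least 1 CPM and the smallest p in each direction past the threshold, and the 5 genes most like 5 members; some genes that the rule names are not reported here. Sums without a list's most abundant gene and likeness without 2 libraries were added after the values were seen. The 2 guide-screen libraries were not used.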

Additional observations from a re-analysis of the deposited data

Results flagged for a closer look

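Among 22 sets of 5 tumour values (the members in each genotype and the Arg1 to Nos2 ratio), 1 held a library far from the others: Cd163 in WT tumour 3, at 1.62 CPM, against 0.505 to 0.733 CPM in the other WT tumours and 0.266 to 0.450 CPM in KD tumours. Chance flags about 1 in 20 such sets. The library rests on 41 counts, the largest number for this gene. Mrc1 was also highest there, at 46.4 CPM.

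In 4 of the 17 named list genes tested in both settings, chosen after their values were seen, the knockdown effect was called in opposite directions in tumours and in cells. Of 11762 genes tested in both, 486 were called in both and 158 in opposite directions. That was 1.34% of the genes tested and 32.5% of those called in both. The 17 genes had been named for their call in tumours, so neither share is a like base for them. All 158 also passed edgeR's interaction test, so passing it adds nothing to the choice, and the differences are given as descriptions. Kitl rose in tumours (log2 fold change 0.71) but stood at 240 ± 34.1 CPM in KD cells and 384 ± 44.5 CPM in WT cells (SD, n = 3 each; log2 fold change -0.69, SE 0.13), a difference of 1.41 (SE 0.16). Mmp9 fell in tumours (-0.62), whereas cells had 36.2 ± 1.03 CPM in KD and 16.8 ± 3.88 CPM in WT (SD, n = 3 each), a difference of -1.69 (SE 0.21). Fabp5 differed by -1.18 (SE 0.18), with a log2 fold change of -0.65 in tumours and 0.56 in cells. Dpt, a dermatopontin gene of fibroblasts, differed by -1.95 (SE 0.26), with -1.21 in tumours and 0.77 in cells.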

How the results depend on the processing

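Nos2, Csf1 and Cd68 kept their call and direction in tumours under all 18 alternatives, and Csf1 in cells under all 13. The count of members lower was 0 in place of 1 with the stricter filter, under which Cd163 was not tested, and 0 to 1 when single libraries were left out. Leaving out a library turned the sign of Adgre1 (-0.16 to 0.27), Trem2 (-0.13 to 0.0381), Apoe (-0.22 to 0.0010) and the tumour-minus-cell difference of Cd68 (-0.39 to 0.0185) and Arg1 (-1.48 to 0.0177), none of which passed the test in any of these fits, and the cause was not tested. Same-numbered libraries did not consistently deviate together from their group means (r = 0.22, -0.15, -0.32, 0.19 and -0.13 in tumours, and 0.04, -0.29 and -0.20 in cells). The main fits did not use the numbers as pairs, and these values cannot exclude a pairing. With a replicate block 4746 genes were called in tumours in place of 5377, and 508 in cells in place of 1111. The Arg1 to Nos2 difference was -1.49 with the block (exact sign-flip p = 0.0625, the smallest that 5 paired differences allow) and -1.73 to -1.29 without single libraries. Genes called in tumours numbered 4069 to 5833 without single libraries, in cells 290 to 1531. Of 38 named list genes, 6 (Ccr7, Nos3, Asl, S100a9, Itgae and Pdpn) lost their call in some of 18 alternatives and 0 changed sign. Of the 4 genes with opposite changes, Fabp5 lost its call in cells in 3 and Dpt in 6 of 13 alternatives. Depth limits Cd163, with 6 to 41 counts per library.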

Other observations

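Of 10 tested endothelial markers, 0 rose, 4 fell and 6 did not pass. The total called was close to the 38.4% of all genes, but every call was a fall, beside 18.3% lower among all genes. Their summed level was 142 to 193 CPM in KD and 177 to 233 CPM in WT tumours. The vascular cadherin gene Cdh5 averaged 22.7 ± 6.64 CPM in KD and 37.6 ± 6.03 CPM in WT (SD, n = 5 each; log2 fold change -0.72, SE 0.16, adjusted p = 0.00436), and the von Willebrand factor gene Vwf fell as well (-0.81, SE 0.20). Of 11 tested fibroblast markers, 2 rose, 4 fell and 5 did not pass, where 20.1% of all tested genes rose and 18.3% fell. Their sum was 3151 to 3886 CPM in KD and 4106 to 5211 CPM in WT tumours. Most of it was Col3a1 (2431 CPM in KD tumours and 3272 CPM in WT tumours), which cultured cells carried at 778 CPM in KD and 1146 CPM in WT. Without Col3a1 the sum was 1142 to 1280 CPM in KD and 1277 to 1677 CPM in WT tumours, with a slight overlap. The collagen gene Col1a1 (-0.88, SE 0.11) and the matrix gene Dpt (-1.21, SE 0.15) fell, and the surface protein genes Thy1 (0.57, SE 0.15) and Pdpn (0.21, SE 0.08) rose. Pdpn lost its call in 12 of 18 alternatives. Thy1 is also expressed by mouse T cells, and their part in its level was not tested.

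Mast cell and basophil markers varied widely among libraries: of 7 tested, 0 rose, 0 fell and 7 did not pass. Over all tested genes 38.4% were called in either direction. The sum of the mast cell and basophil markers was 91.2, 92.0, 15.1, 79.0 and 38.1 CPM in KD tumours 1 to 5, against 90.1, 55.6, 98.0, 85.0 and 94.5 CPM in WT tumours 1 to 5. The lowest values, in KD tumours 3 and 5 and WT tumour 2, were in libraries that were also low in Adgre1. WT tumours 4 and 5 did not follow this. Their Adgre1 levels (55.0 and 52.5 CPM) were near that of KD tumour 5 (49.1 CPM), but their marker sums were high. Of the 2 tested B cell markers, 0 passed, and the B cell genes Ms4a1 and Fcmr were either missing from the count table or listed at 0. The genes nearest to Adgre1 within genotypes, a member added to that search after its values were seen, were Entpd1 (r = 0.99), Sla, Slc43a2, Smpdl3a and Slc37a2, none of which passed between genotypes.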
